A study of Mus musculus with 4 samples.

Results

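The 10 genes described here encode transcription factors known as drivers or partners in epithelial-mesenchymal transition (EMT): Snai1, Snai2, Snai3, Twist1, Twist2, Zeb1, Zeb2, Prrx1, Foxc2 and Tcf4. They were picked out by symbol, with earlier results of these data known, and all 10 were found among the 22186 genes of the deposited table. RNA sequencing was done on MC38, a mouse colon carcinoma cell line, stably carrying TetOn-CXCL14, a construct that expresses the chemokine CXCL14 from a tetracycline-inducible promoter. Group 1 was 2 cultures of this line given 1 µg/mL doxycycline (DOX), and group 2 was 2 control cultures of the same line given an equal volume of the solvent PBS, all harvested after 72 h. Both groups carried the construct, and no library here received doxycycline without it, so doxycycline and CXCL14 cannot be told apart. The sources used here do not say whether the line is a single clone. The series text calls the 2 samples of a group biological replicates, and nothing more says how the cultures were separated, so p-values measure only the spread between these samples.

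In EMT, epithelial cells lose their junctions and keratins and take up a migratory, mesenchymal state. Snail proteins (Snai1 to Snai3) and ZEB proteins are zinc finger repressors that bind E-box sequences in epithelial promoters such as that of Cdh1, which encodes E-cadherin. Twist1 and Twist2 are basic helix-loop-helix (bHLH) factors that bind DNA as dimers, often with E proteins such as that encoded by Tcf4 (also called E2-2), and ID proteins block such dimers by binding E proteins. Prrx1 is a homeobox factor and Foxc2 a forkhead factor, both active in embryonic mesenchyme.

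Sequences before the transcription start are shown for Snai1, the member with the largest change, for the pair Twist1 and Twist2, of which Twist1 alone passed the test of change, and for Epcam, an epithelial gene of the kind these factors repress. Each is the 250 bases before the start from the RefSeq promoter table of build GRCm38.p6, an earlier build than the mm39 named for the deposited values. The capitals mark the E-box CACCTG or its reverse complement CAGGTG, the motif searched, which covers both strands. RefSeq promoters were matched for 5 of the 10 members (Snai1, Twist1, Twist2, Zeb2 and Prrx1).
Snai1, chr2:167537945-167538194, plus strand: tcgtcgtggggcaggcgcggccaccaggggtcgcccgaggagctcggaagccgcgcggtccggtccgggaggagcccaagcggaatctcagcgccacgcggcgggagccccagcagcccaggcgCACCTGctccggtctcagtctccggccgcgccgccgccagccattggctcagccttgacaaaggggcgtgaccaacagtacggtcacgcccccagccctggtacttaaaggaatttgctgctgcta
Twist1, chr12:33957421-33957670, plus strand: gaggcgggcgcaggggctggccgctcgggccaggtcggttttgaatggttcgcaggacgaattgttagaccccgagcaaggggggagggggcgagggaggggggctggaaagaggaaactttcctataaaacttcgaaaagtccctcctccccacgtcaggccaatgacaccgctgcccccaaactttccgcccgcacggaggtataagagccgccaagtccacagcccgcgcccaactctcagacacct
Twist2, chr1:91801211-91801460, plus strand: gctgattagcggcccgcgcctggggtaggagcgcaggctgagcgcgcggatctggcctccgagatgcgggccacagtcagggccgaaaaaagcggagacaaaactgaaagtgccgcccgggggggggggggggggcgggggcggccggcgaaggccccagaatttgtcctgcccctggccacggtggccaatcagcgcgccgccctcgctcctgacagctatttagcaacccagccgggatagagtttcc
Epcam, chr17:87635729-87635978, plus strand: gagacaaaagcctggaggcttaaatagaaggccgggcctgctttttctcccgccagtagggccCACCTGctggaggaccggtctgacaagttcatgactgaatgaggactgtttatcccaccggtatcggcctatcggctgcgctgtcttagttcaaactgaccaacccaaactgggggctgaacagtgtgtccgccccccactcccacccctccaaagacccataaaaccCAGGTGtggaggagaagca
The Snai1 window held CACCTG once, starting 126 bases before the start. The windows of Twist1 and Twist2 held neither form, nor did those of Zeb2 and Prrx1, so 1 of 5 matched members (20%) had the motif. Epcam held it 187 and 19 bases before its start. Among all 32851 windows of this length 17.2% held it, and by gene 19.4% of 27025 did. Of 25 epithelial genes listed as repressed in EMT, 17 had a promoter in the table and 11 of these (64.7%) held the motif. These are matches of letters and say nothing of binding in these cells.

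Levels are given in TPM, a share of all transcripts in a library, which are scaled for transcript length and so can be set side by side between genes. Read counts are in neither deposited table, and the sequencing depth is therefore unknown. Cxcl14, the induced gene, stood at 385 and 391 TPM with DOX and at 27.3 and 29.2 TPM in controls. The labels call these colon cancer cells, and the defining markers of colon epithelium were nearly absent: 12 of 12 (Epcam, Cdh1, Cdh17, Vil1, Krt8, Krt18, Krt19, Krt20, Cdx1, Cdx2, Lgals4 and Cldn7) averaged under 1 TPM, their summed level was 0.875 and 1.30 TPM with DOX and 1.26 and 1.51 TPM in controls, and Cdh1, Cdx1, Cdx2 and Krt19 were listed at 0 in all 4 libraries. Of 10 macrophage markers 8 were below 1 TPM on average, with summed levels of 7.60 and 9.06 TPM with DOX and 10.3 to 12.1 TPM in controls, and C1qa, C1qc and Laptm5 were listed at 0 in all 4 libraries. The 5 endothelial markers were below 1 TPM, with summed levels of 0.119 to 0.173 TPM with DOX and 0.538 to 0.627 TPM in controls, and Kdr was listed at 0 throughout. Of 9 fibroblast markers 4 were below 1 TPM on average (Col1a2, Fap, Lum and Thy1), and Thy1 was listed at 0 in all 4 libraries. Of the 5 fibroblast markers tested 4 fell, as did 35.4% of all genes tested. Among these 4 was Postn, named after its values were seen, with means of 0.450 TPM with DOX and 1.83 TPM in controls. Postn reached the mean of 1 TPM needed for testing through its controls alone. At its DOX level it could be tested only if controls were higher, so its direction carries little weight. The summed level of that list was 882 and 801 TPM with DOX and 4004 and 4157 TPM in controls, mostly from Dcn, and its part in the changes below was not tested. In bulk libraries fewer cells of a type and less RNA per cell cannot be told apart.

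The question of the comparison, from the series title, was how CXCL14 bears on EMT. Snai1, Twist1, Zeb1, Foxc2 and Tcf4 fell with DOX, and Zeb2 passed narrowly as lower. Twist2, the most abundant member, and Prrx1 and Snai2 did not pass the test, and Snai3 was listed at 0 in all 4 libraries. In all, 9 of the 10 members had a mean of at least 1 TPM and were tested, 6 passed as lower and 0 as higher at a limma adjusted p under 0.05. Across all 11359 genes tested, 64.4% passed in either direction, 29.0% as higher and 35.4% as lower. The median log2 change was -0.62 over the 9 members and -0.04 over all genes tested. By unadjusted p under 0.05, 0 members were higher too, while quantile normalization called 1, Snai2.

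**Figure D1:**
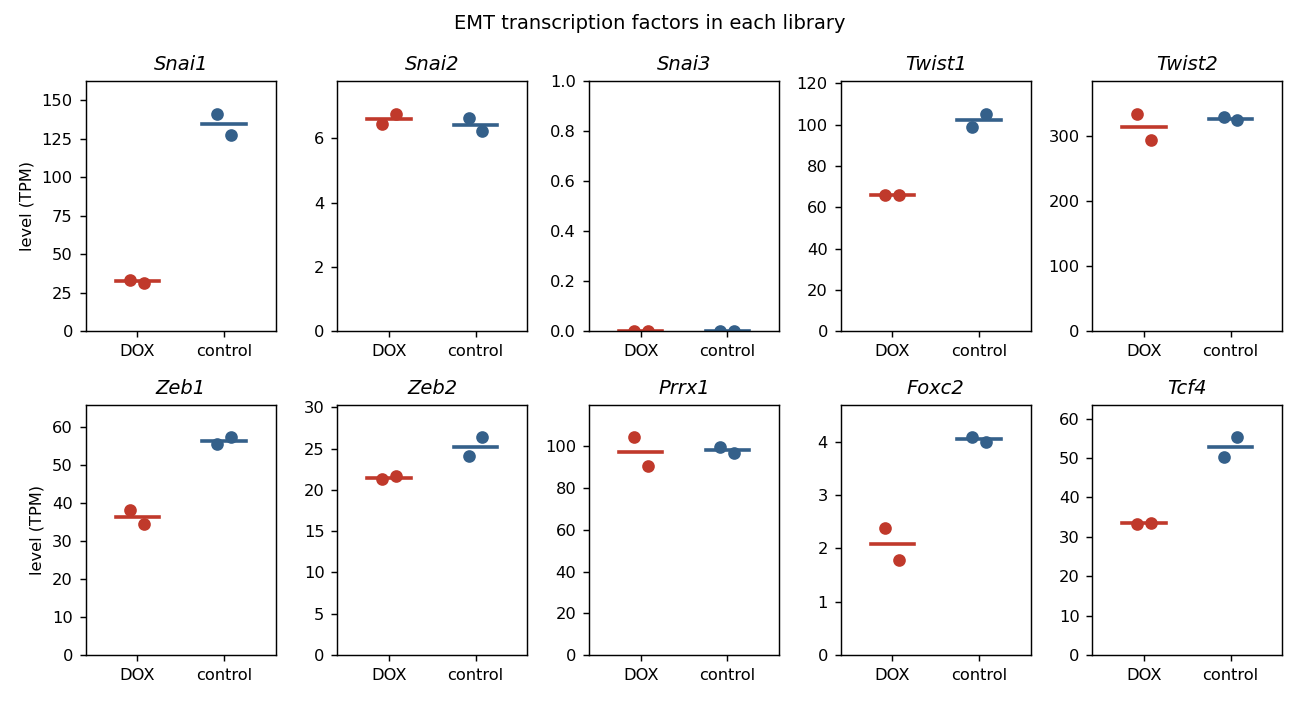
Level in TPM (vertical axis, from 0, its own scale in each panel) of each of the 10 EMT transcription factors in the 2 DOX and 2 control libraries; points are libraries and lines are group means. The DOX points of Snai1, Twist1, Zeb1, Zeb2, Foxc2 and Tcf4 lie below the control points, those of Twist2, Prrx1 and Snai2 overlap them, and Snai3 is at 0.

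Snai1, a direct repressor of the E-cadherin gene, had 33.6 and 31.4 TPM with DOX, against 141 and 128 TPM in controls. The highest DOX library lay far below the lowest control library. It averaged 32.5 ± 1.53 TPM with DOX and 134 ± 9.72 TPM in controls (SD, n = 2 each), so that DOX cultures held 24.1% of the control level. On the log2(TPM + 1) scale, on which low genes appear to change less than they do, the difference was -2.02 with SE 0.07 (limma adjusted p = 6.9e-08). Among the genes tested 160 fell further. In controls Snai1 was second in level among the 10 members, and with DOX it was the sixth, below Tcf4 at 33.5 TPM and Zeb1 at 36.3 TPM.

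Snai2 (Slug), the family member of neural crest and basal epithelia, was low and did not pass the test. It had 6.44 and 6.77 TPM with DOX and 6.62 and 6.23 TPM in controls, and the groups overlapped. The log2 difference was 0.03, with a 95% interval from -0.22 to 0.28 (limma adjusted p = 0.80), which leaves out a fall of the size seen for Snai1. Snai3, the third Snail gene, was listed at 0 in every library. Summed Snail levels were 40.0 and 38.2 TPM with DOX and 148 and 134 TPM in controls. Within each library Snai1 stood at 5.21 and 4.64 times Snai2 with DOX and at 21.4 and 20.5 times in controls, a ratio that does not depend on how a library is scaled. The exact permutation test of such a ratio over 2 against 2 libraries gave p = 0.33 (two-sided), the smallest this design allows, and the same holds for every ratio below.

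Twist1 and Twist2, close relatives in sequence, differed in outcome. Twist1, needed for cranial and limb mesenchyme, had 65.8 TPM in both DOX libraries, against 98.8 and 105 TPM in controls. It averaged 65.8 ± 0.00837 TPM with DOX and 102 ± 4.60 TPM in controls (SD, n = 2 each), with a log2 difference of -0.62 and SE 0.06 (limma adjusted p = 2.6e-05). Twist2 (Dermo1), a factor of dermal mesenchyme, had 334 and 293 TPM with DOX and 328 and 324 TPM in controls. Its DOX libraries lay on either side of both control libraries, and the log2 difference was -0.06, with a 95% interval from -0.22 to 0.10 (limma adjusted p = 0.49). The Twist1 level was 0.197 and 0.224 of the Twist2 level with DOX and 0.301 and 0.325 of it in controls, without overlap (exact permutation p = 0.33). Twist2 thus made up 83.5% and 81.7% of the Twist total with DOX and 76.9% and 75.5% of it in controls. In the GENCODE M21 annotation the antisense gene Gm29100 shares 1477 exon bases with Twist2. It has no row here, and since the strand setting of the library kit and of the quantification is not given in the sources used here, its reads and those of Twist2 cannot be told apart.

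Zeb1 and Zeb2, zinc finger and homeodomain repressors held in check by the miR-200 family, were both lower with DOX, Zeb2 narrowly so. Zeb1 had 38.2 and 34.3 TPM with DOX, against 55.6 and 57.2 TPM in controls. Means were 36.3 ± 2.76 TPM with DOX and 56.4 ± 1.17 TPM in controls (SD, n = 2 each), a log2 difference of -0.62 with SE 0.07 (limma adjusted p = 7.8e-05). Zeb2 had 21.3 and 21.7 TPM with DOX and 24.1 and 26.3 TPM in controls, without overlap but with little space between the groups. Its log2 difference was -0.22 with SE 0.08 (limma adjusted p = 0.040), and 7 of 15 alternative settings ended the call. Leaving out control replicate 2 gave a limma adjusted p of 0.18, leaving out DOX replicate 1 gave 0.15 and leaving out DOX replicate 2 gave 0.10. Zeb1 stood at 1.80 and 1.58 times Zeb2 with DOX and at 2.31 and 2.17 times in controls (exact permutation p = 0.33). Summed ZEB levels were 59.5 and 56.0 TPM with DOX and 79.7 and 83.6 TPM in controls. In GENCODE M21 the antisense gene Zeb2os shares 653 exon bases with Zeb2, and Gm10125 shares 198 with Zeb1. Neither has a row here. Beyond these overlaps, sequence at 97% identity over 100 bases or more was found in another gene only for Zeb1, in stretches of at most 106 bases in Gm44715, Olfr1156 and Olfr715.

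Prrx1, among the 4 most abundant members in both groups, did not pass, and Foxc2, the lowest of the 9 tested, fell. Prrx1 had 104 and 90.6 TPM with DOX and 99.9 and 96.8 TPM in controls, and the DOX libraries spanned both controls. The log2 difference was -0.02, with a 95% interval from -0.19 to 0.16 (limma adjusted p = 0.86). Foxc2, a factor of lymphatic valves and paraxial mesoderm, had 2.37 and 1.79 TPM with DOX, against 4.08 and 4.01 TPM in controls. All 4 values were low, and the DOX libraries held on average 51.4% of the control level. Its log2 difference was -0.72 with SE 0.15 (limma adjusted p = 0.0023). The paralogs Prrx2 and Foxc1, outside the member list, both fell, while Prrx1 did not pass. Of these paralogs, Prrx2 was named here after its values were seen. Prrx2 had 47.9 and 41.0 TPM with DOX, against 114 and 113 TPM in controls (log2 difference -1.34, limma adjusted p = 9.5e-07), so that Prrx1 was 2.18 and 2.21 times Prrx2 with DOX and 0.880 and 0.856 times in controls. Foxc1, a forkhead factor that shares roles with Foxc2 in the embryo, had 5.58 and 5.70 TPM with DOX, against 25.5 and 27.7 TPM in controls (log2 difference -2.06, limma adjusted p = 2.2e-07). Foxc2 was 0.426 and 0.313 of Foxc1 with DOX and 0.160 and 0.145 of it in controls.

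**Figure D2:**
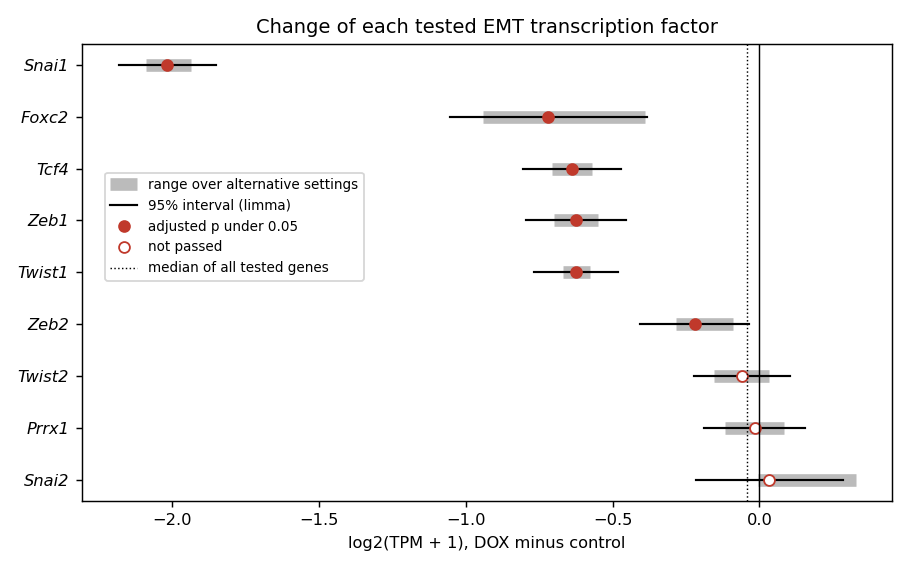
Difference in log2(TPM + 1), DOX minus control (horizontal axis), for the 9 tested members; points are limma estimates from 2 against 2 libraries (filled where adjusted p is under 0.05), black lines 95% intervals, grey bars the range over the alternative settings, and the dotted line the median of all tested genes. Snai1 lies at -2.02, a group of 4 genes lies between -0.62 and -0.72, Zeb2 lies at -0.22, and Twist2, Prrx1 and Snai2 lie around 0.

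Tcf4, the E protein E2-2, had 33.4 and 33.5 TPM with DOX, against 50.2 and 55.3 TPM in controls. The 2 DOX libraries were close together and well below both controls. It averaged 33.5 ± 0.115 TPM with DOX and 52.7 ± 3.59 TPM in controls (SD, n = 2 each), with a log2 difference of -0.64 and SE 0.07 (limma adjusted p = 6.1e-05). The other E protein genes went both ways. Tcf12 (HEB) rose, with 161 and 171 TPM with DOX and 100 and 109 TPM in controls (log2 difference 0.66, limma adjusted p = 2.6e-05). Tcf3 (E2A) had 131 and 127 TPM with DOX, against 186 and 178 TPM in controls, and fell (log2 difference -0.50, limma adjusted p = 7.5e-05). The sum of the E protein genes Tcf3, Tcf4 and Tcf12 was 325 and 331 TPM with DOX and 337 and 342 TPM in controls. Tcf4 made up 10.3% and 10.1% of that sum with DOX and 14.9% and 16.1% of it in controls.

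Genes of the ID proteins, the inhibitors of these dimers, fell. Id3 had 93.8 and 85.5 TPM with DOX, against 614 and 605 TPM in controls, and Id1 and Id2 also fell (log2 difference -2.63 and -1.62, limma adjusted p at most 1.5e-07). Id4 had a mean below 1 TPM and was not tested. The sum of the ID genes was 261 and 239 TPM with DOX and 1201 and 1233 TPM in controls. Per unit of E protein RNA, ID RNA stood at 0.803 and 0.720 with DOX and at 3.57 and 3.60 in controls (exact permutation p = 0.33). Of the 6 genes of E protein partners and ID inhibitors, 5 were tested, and 1 rose and 4 fell. Across all genes tested 29.0% rose and 35.4% fell.

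**Figure D3:**
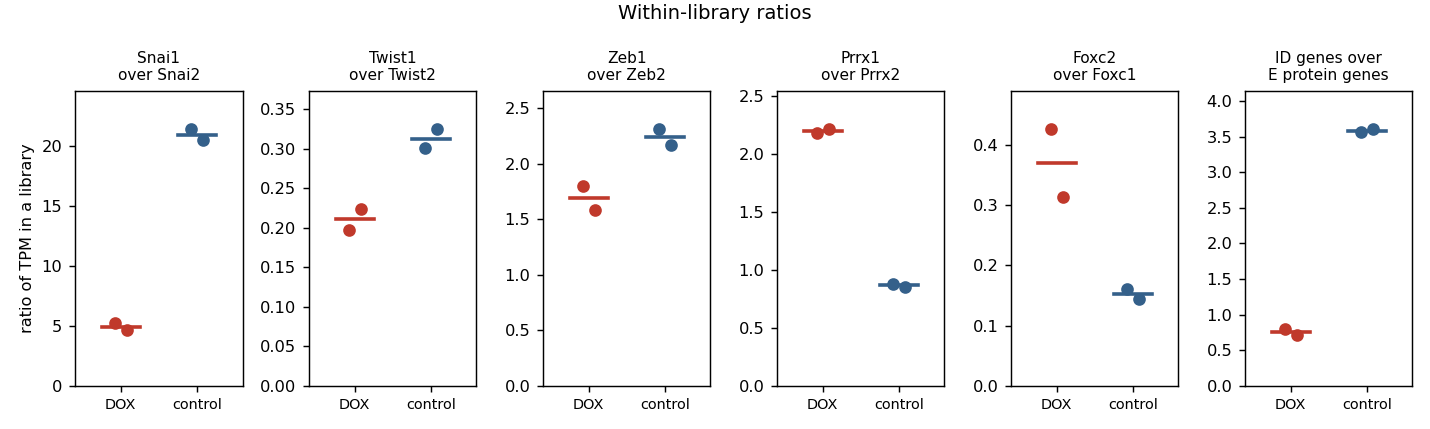
Ratios of TPM within each library (vertical axis, from 0, its own scale in each panel) for 5 pairs of related factors and for the ID genes over the E protein genes; points are libraries and lines group means, with DOX left of control. Snai1 over Snai2, Twist1 over Twist2, Zeb1 over Zeb2 and ID over E protein genes are lower in both DOX libraries, and Prrx1 over Prrx2 and Foxc2 over Foxc1 are higher.

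Twist2 held the largest share of the RNA of the 10 members in all 4 libraries, at 52.2% and 50.6% of their summed TPM with DOX and 40.6% and 40.4% in controls. The sum itself was 639 and 579 TPM with DOX and 809 and 803 TPM in controls. Without Twist2 it was 305 and 286 TPM with DOX, against 481 and 479 TPM in controls. The share of Snai1 was 5.25% and 5.42% with DOX and 17.5% and 15.9% in controls, whereas Prrx1 held 16.3% and 15.6% with DOX and 12.4% and 12.1% in controls. In order of mean level the controls ran Twist2, Snai1, Twist1, Prrx1, Zeb1, Tcf4, Zeb2, Snai2, Foxc2 and Snai3. Twist1 at 98.8 and 105 TPM and Prrx1 at 96.8 and 99.9 TPM overlapped there. The DOX cultures ran Twist2, Prrx1, Twist1, Zeb1, Tcf4, Snai1, Zeb2, Snai2, Foxc2 and Snai3, and in them Snai1 (31.4 and 33.6 TPM) overlapped Tcf4 (33.4 and 33.5 TPM).

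**Figure D4:**
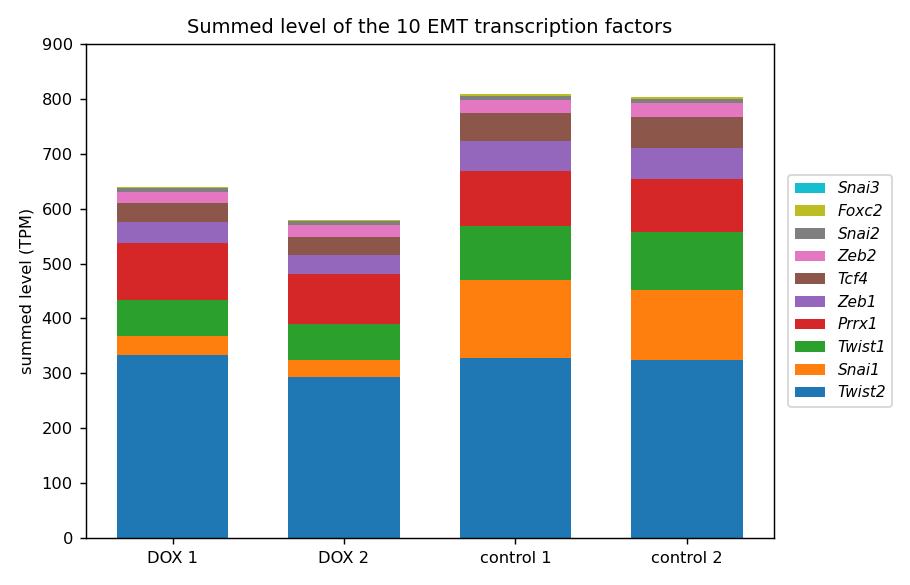
Summed TPM of the 10 EMT transcription factors (vertical axis, from 0) in each DOX and control library, stacked by gene in order of control level. The bars reach 639 and 579 TPM with DOX and 809 and 803 TPM in controls, and the Snai1 segment is the one that differs most.

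Genes whose profile over the 4 libraries lay nearest to each member that passed were found by Euclidean distance of log2(TPM + 1) values centred on their mean. Near to Snai1 were Slc25a10 and Ntn1, at distances of 0.0717 and 0.0780. Mt2, Nek7 and Kif23 lay nearest to Twist1, and Mt2, Kif23 and Tfrc to Tcf4, at distances up to 0.0328. For Zeb1 they were Rgl3, Ctdspl and Smim1 (0.0124 to 0.0313), for Zeb2 Evl, Pla2g4a and Malt1 (0.0103 to 0.0210), and for Foxc2 Smim38, Dusp14 and Hspa12b (0.0309 to 0.0422). Smim38 passed the filter through its controls alone, with 0.697 and 0.421 TPM with DOX and 1.53 and 1.49 TPM in controls. With 4 libraries such nearness describes mainly the size of the group difference.

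Genes that help these factors repress, or that set their protein stability, passed in both directions, in shares near those of all genes tested (29.0% higher and 35.4% lower). Of 12 corepressor genes 4 rose and 4 fell, with a median log2 change of -0.01. Ajuba, a LIM protein that links Snail to other repressors, rose with 111 and 114 TPM with DOX and 64.5 and 61.7 TPM in controls (log2 difference 0.82), and the arginine methyltransferase Prmt5 rose by 0.59. The histone deacetylase Hdac1 fell by 0.62 and the histone demethylase Kdm1a, which Snail recruits, fell by 0.34. Without DOX replicate 2 the corepressors that rose numbered 2. Of 15 stability regulators 4 rose and 6 fell, with a median of -0.21, and without DOX replicate 1 or replicate 2 those that rose numbered 2. Prkd1, a kinase that phosphorylates Snail, had 22.6 and 19.1 TPM with DOX, against 47.2 and 52.3 TPM in controls (log2 difference -1.22). The ubiquitin ligase components Fbxl5 and Btrc, which can mark Snail for degradation, and the ligase Mdm2 fell (log2 difference -0.58, -0.42 and -0.35). Limma adjusted p for the genes named in these lists was at most 0.0021.

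Most of the epithelial genes that these factors are known to repress were at or near 0 in both groups. Of 25 such genes 22 averaged under 1 TPM, and Cdh1, Cgn, Krt19, Marveld3 and Ocln, 5 in number, had 0 in every library. Epcam, whose promoter is shown above, was listed at 0 and 0.0675 TPM with DOX and at 0 in both controls. The 3 tested all fell: the mucin Muc1 with 1.66 and 1.40 TPM with DOX and 5.09 and 5.47 TPM in controls, the desmosomal plakophilin Pkp3 (log2 difference -1.02) and the polarity gene Llgl2 (-0.42). Llgl2 stood highest of these 3, with 9.32 and 9.12 TPM with DOX and 12.6 and 12.7 TPM in controls. The summed level over all 25 epithelial genes was 14.0 and 13.3 TPM with DOX and 24.6 and 23.8 TPM in controls. Their calls depended on the filter: 6 fell and 1 rose without one, and 1 fell with a filter of 5 TPM. Under quantile normalization 2 fell. Among 17 transcription factors of the epithelial state 12 were below 1 TPM. Of the 5 tested 2 rose and 2 fell, beside 29.0% and 35.4% of all genes tested. Grhl1, a grainyhead factor of epidermis, rose with 5.93 and 7.25 TPM with DOX and 2.58 and 2.08 TPM in controls (log2 difference 1.19), and Klf4 rose by 0.27. Elf3 fell by 1.50, with 0.423 and 0.211 TPM with DOX and 2.49 and 2.94 TPM in controls, and Foxa1 fell by 0.51. Limma adjusted p for these 7 genes was at most 0.023. Elf3 passed the filter on low values through its controls alone. At its DOX level it could be tested only if controls were higher, so its direction carries little weight. Of the epithelial-state factors 1 rose and 0 fell with a filter of 5 TPM, and 2 rose and 1 fell without a filter. Under quantile normalization 3 of them rose and 1 fell. In this short list those that fell numbered 1 without control replicate 1, control replicate 2 or DOX replicate 1, and those that rose numbered 1 without DOX replicate 1.

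Mesenchymal genes that rise in EMT mostly fell with DOX. Of 24 listed, 19 were tested, 14 fell and 4 rose, and the median log2 change was -0.67. Among all genes tested 35.4% fell and 29.0% rose, with a median of -0.04. The matrix protease Mmp2 had 11.1 and 10.3 TPM with DOX, against 52.5 and 45.6 TPM in controls (log2 difference -2.09). Fn1, which encodes fibronectin, fell by 1.16 and Vim, which encodes vimentin, by 0.60. Cdh2, which encodes N-cadherin, had 3.36 and 3.67 TPM with DOX, against 5.53 and 6.86 TPM in controls. Acta2, a smooth muscle actin, rose with 3.98 and 3.50 TPM with DOX and 0.547 and 1.12 TPM in controls (log2 difference 1.39). Acta2 passed the filter on low values through its DOX libraries alone. Postn, which encodes periostin and was named after its values were seen, passed it through its controls alone. It averaged 0.450 TPM with DOX and 1.83 TPM in controls. Given the level of its low group, each could be tested only if its other group was higher, so both directions carry little weight. With a filter of 5 TPM 12 fell and 3 rose. Without DOX replicate 1 those that rose numbered 2. Limma adjusted p for the genes named was at most 0.0021.

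Other transcription factors linked to EMT fell more often than they rose: of 22 listed, 16 were tested, 14 fell and 1 rose, with a median of -0.97. Over all genes tested 35.4% fell and 29.0% rose, with a median of -0.04. Sox9, an HMG-box factor of cartilage and intestinal crypts, had 21.4 and 21.5 TPM with DOX, against 90.1 and 102 TPM in controls (log2 difference -2.11). Lef1, a nuclear partner of beta-catenin, and Hand2, a bHLH factor of heart and limb, fell (log2 difference -1.66 and -1.54), and Foxc1 is given above. Klf8, the member that rose, named after its values were seen, had 11.8 and 12.1 TPM with DOX and 8.95 and 8.36 TPM in controls. Limma adjusted p for these genes was at most 0.0042.

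Upstream of the 10 factors, of 22 genes of TGF-beta, Notch, Wnt, growth factor and stress signalling, 19 fell and 2 rose, with a median of -0.73. For all genes tested the shares were 35.4% lower and 29.0% higher, and the median was -0.04. Notch1, a receptor, had 2.53 and 2.17 TPM with DOX, against 7.59 and 7.44 TPM in controls (log2 difference -1.35). Stat3, Ctnnb1, which encodes beta-catenin, and the receptor Fgfr1 fell (log2 difference -1.27, -1.22 and -1.19). The 2 that rose, named after their values were seen, were Smad2 (log2 difference 0.25) and Rela (0.29), and those that rose numbered 1 without control replicate 2, without DOX replicate 1 or without DOX replicate 2. Limma adjusted p for the genes named was at most 0.017.

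**Figure D5:**
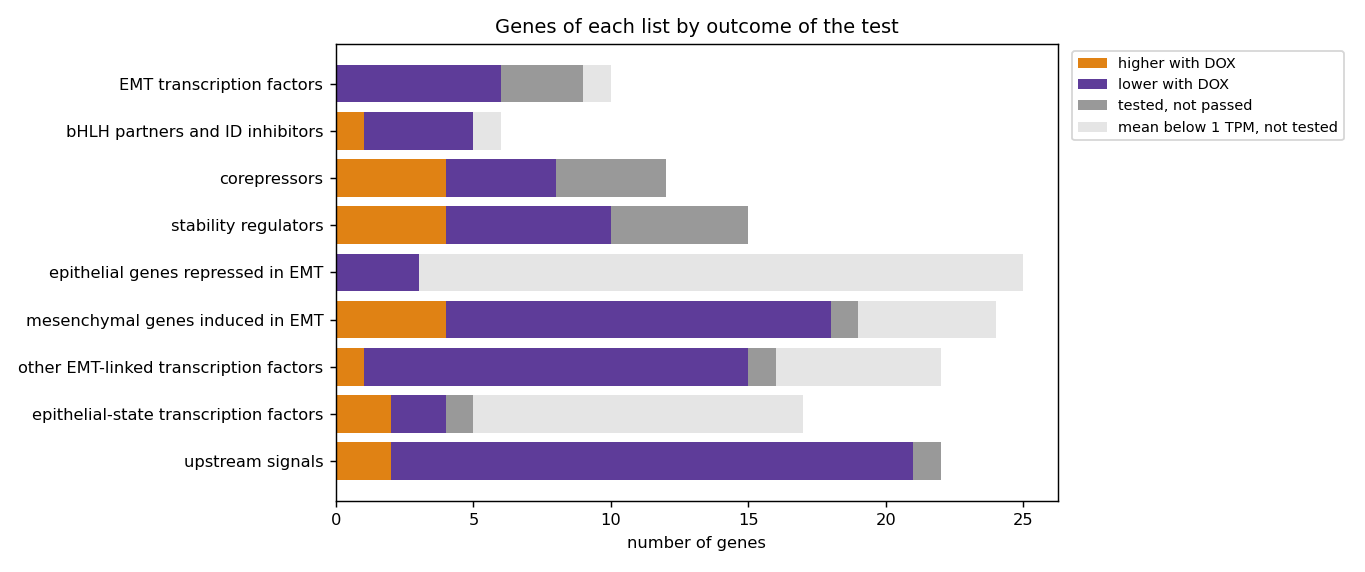
Number of genes (horizontal axis) in each list that were higher, lower or not passed with DOX against control by the limma test, or not tested because their mean was below 1 TPM. Most upstream signals, mesenchymal genes and other EMT-linked factors fell, while 22 of 25 epithelial genes were not tested.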

How the data were processed

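RNA from 4 MC38 cultures was sequenced, and groups came from the sample titles. Per the file headers, the authors deposited TPM in a first table and FPKM in a second, both keyed by gene symbol. The submitters' processing notes name the build mm39. For the aligner, the quantifier and the annotation, the name is not given in the sources used here. Listed genes summed to 97.2% to 97.6% of the total to which TPM are scaled, and in each library TPM were a constant times FPKM (3.08 to 3.14). Without read counts, no counting interval is given.

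Of the 22186 genes, the 11359 that averaged 1 TPM or more across libraries entered limma 3.58.1 (R 4.3.3) as log2(TPM + 1) (eBayes, with the prior variance following the mean), 2 DOX against 2 control libraries, with no covariate. P-values were adjusted by Benjamini-Hochberg over all genes tested, and calls are at 0.05, two-sided. Residual degrees of freedom were 2 beside 6.98 from the prior. The code was tested on simulated data. No set test was run. Python 3.11.15 with pandas 2.3.3 gave sums and ratios. Overlapping genes and copies (97% identity over 100 bases, blastn 2.17.0) came from GENCODE M21, and no coordinates from it are given. No protein sequences were used here.

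The members and lists were chosen with earlier results of these data known. Named genes are all members, Cxcl14, up to 4 called genes of largest change per list, Cdh1, Epcam, Vim, Fn1, Cdh2, and the 3 nearest profiles per called member among symbols without a clone-type name. A gene that this rule selects is not reported here by name. Others are marked as named after their values were seen, as are Tcf3 and genes listed at 0. The settings varied were the pseudocount (0.1 and 0.5), the filter (none, or 5 TPM), use of FPKM, other scalings, the variance model, a replicate block and the libraries, each left out in turn. With a single library left in a group, it is assumed to vary like the other group.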

Additional observations from a re-analysis of the deposited data

How the results depend on the processing

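Snai1, Twist1, Zeb1 and Tcf4 kept their direction and their call in all 15 alternative settings, and Foxc2 in the 14 that tested it (a filter of 5 TPM removed it). Over these settings their log2 differences ran from -2.09 to -1.94, -0.67 to -0.58, -0.70 to -0.55, -0.71 to -0.57 and -0.94 to -0.39. For Foxc2 the smallest was under quantile normalization, and in FPKM, where a pseudocount of 1 weighs more on low values, it was -0.46. The members called lower numbered 5 or 6, the variable ones being Zeb2 and, where the filter removed it, Foxc2. The Zeb2 call was lost without a filter (adjusted p = 0.071), in FPKM (0.052), under median-of-ratios scaling (0.093), under quantile normalization (0.36) and without each of 3 libraries, and the cause was not tested. Quantile normalization raised the members called higher to 1 against 0, Snai2 (log2 difference 0.33, adjusted p = 0.026). Members that did not pass crossed 0. With each library left out in turn the log2 difference ran from -0.0037 to 0.072 for Snai2, from -0.15 to 0.034 for Twist2 and from -0.12 to 0.084 for Prrx1, which stood at 0.030 under median-of-ratios scaling. Median-of-ratios scaling and quantile normalization moved all genes by a median of 0.05 and 0.08. Across the 8 gene lists, 19 of 240 counts of calls moved by more than 1.5 times. The replicate numbers did not pair the libraries (correlation of deviations -0.0053 over 11359 genes), and with the replicate block 6 members were lower and 0 higher, as without it. Unknown depth limits what can be said of genes at or near 0.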
